A study of Danio rerio with 18 samples.

Results

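In the livers of 18 adult zebrafish, 36 of 43603 array probes were well above background in every fish of 2 laboratory strains and in no fish of the remaining strain. A probe is an oligonucleotide that reads 1 short stretch of a transcript, so that several probes of 1 transcript accession are separate readings of it. The scanner's software marks a spot as well above background when its signal clearly exceeds that of its surroundings. The probes were chosen by this mark: a probe counts here as missing in a strain if 0 of the 6 arrays of that strain and all 12 arrays of the others carried it. Where a probe had several spots, a share of marked spots above 0.5 counted as marked. Of the 36 probes, 15 were missing in AB, 4 in TU and 17 in WIK, and they belonged to 35 accessions. Genes with an mhc1 symbol were to be left out, and 0 probes were removed by this step, but 12 of the 36 have no symbol and could not be checked for it. Of the other 24 probes, 19 were named through RefSeq and 5 through the gene tables of the study.

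The fish were naive, untreated adults, aged 12 to 18 months by the sample descriptions, for which the study's methods give a narrower range. There were 3 males and 3 females each of the AB, Tuebingen (TU) and WIK strains. Each strain had been bought as batches of 100 embryos and kept for 2 generations in 1 facility, so that each strain stands for a single source. RNA of each liver was hybridized to 1 one-colour array. AB livers were taken in the morning and those of TU and WIK in the afternoon, so that time of day and the AB strain cannot be told apart. Sex had been read from eggs or testes at dissection. In TU female 3, log2 signal of vtg1, a yolk precursor made by the female liver, was 11.54 against 17.99 and 18.17 in the other TU females. Without that fish, 15, 5 and 17 probes were missing in AB, TU and WIK.

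Between 44.9% and 67.3% of spots were well above background on each array. Over all 18 arrays, 15716 probes were marked on every array and 7460 on none. The hepatocyte markers that define the tissue were bright in every group, with a mean log2 signal over 14 genes of 15.62 to 17.28. The median difference between AB and the others was 0.05 over 29 clock genes, -0.87 over 11 leukocyte genes and -0.89 over 8 intestinal genes. A median can hide clock genes that change in opposite directions. The study reports arntl1a lower and cry5 higher in AB than in TU and WIK. The part of these lists in the AB results was not tested. The arrays lay on 6 slides scanned on 4 days. The replicate number of the fish follows the scan day, with numbers 1 and 2 on 1 day each, and number 3 on 1 day for AB and TU and another for WIK.

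AB, TU and WIK are laboratory lines of zebrafish that carry different alleles. The liver clears drugs and steroids through cytochrome P450 enzymes, sulfotransferases and efflux pumps, breaks down amino acids and makes cholesterol. It also shows peptides on MHC class I molecules, for which proteasome subunits cut the peptides and tapasin helps to load them. Genes with each of these roles were among the missing probes.

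All levels below are normalized log2 signals, and the drop of a probe is the mean of the 12 arrays of the other strains minus the mean of the 6 arrays of the strain where it was missing. The rule chose the probes on this contrast, so the drops are descriptions and carry no test. They end at the floor of the signal, so larger and smaller drops order the probes as measured and not by size of effect. As the missing strain has only a bound, fold changes are given as "at least". For the bound, each dim array was given the higher of 2 values. These were its own signal and the dimmest signal that any probe well above background had on it. The mean over the 6 dim arrays was set against that of the 12 bright arrays. Where the own signals were the higher throughout, the bound equals the measured ratio. The 12 arrays pool 2 strains, so the fold against 1 strain can be smaller. At psmb12, WIK was measured 14.9-fold below AB, where the pooled bound is 18.5.

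Drops ran from 0.55 to 4.21, with a median of 1.47 among the probes missing in AB, 1.91 in TU and 1.30 in WIK. The median difference between each strain and the others over all probes was -0.0013 for AB, -0.014 for TU and -0.0016 for WIK. In the missing strain the spots' unnormalized signal was 22 to 50.5, and in the other strains it was 36 to 31338.5. For 35 of the 36 probes the normalized values of the missing strain all lay below those of the other fish. The share of all probes whose 6 arrays of a strain all lay below the 12 others was 1.05% for AB, 0.29% for TU and 0.506% for WIK, and since the rule used the same contrast nothing is read from that count. A weaker mark of the software asks only that a spot is significantly above its background. By this mark 4 of the 36 probes had no array of the missing strain above background, and 3 probes had all 6.

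Among the 15 probes missing in AB was that of cel.2 (accession ENSDART00000040598), which dropped by 4.20 and codes for a carboxyl ester lipase, a digestive enzyme of the exocrine pancreas. Its log2 signal was 5.97, 6.02 and 6.18 in AB (lowest, median and highest of 6 fish), 8.09, 9.58 and 11.93 in TU, and 8.75, 10.05 and 14.44 in WIK. AB lay below every other fish, at least 18.1-fold lower than the mean of TU and WIK. The highest value in TU was that of TU male 3 and the highest in WIK that of WIK male 3.

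Signal of the exocrine pancreas varied between the livers as well. Of the 20 genes of the pancreas list, 15 were measured, cel.2 among them, and their median was 3.65 lower on the log2 scale in AB. In each fish the mean log2 level of the 15 genes was 9.07 to 9.58 in AB males, 10.31 to 11.92 in AB females, 11.38 to 15.49 in TU and 11.02 to 16.36 in WIK. The part of this in the drop of cel.2 was not tested, and in bulk tissue fewer cells of a type and less RNA per cell cannot be told apart.

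The array holds 4 more probes named cel.2 or its tandem neighbour cel.1, under other accessions, and they were looked up after the values of the first were seen. The missing probe takes its name from the gene tables of the study. At A_15_P141231 (NM_001025173), named cel.2 through RefSeq, AB was the high strain. Its log2 signal was 9.43, 10.55 and 13.02 in AB, 5.82, 6.90 and 7.50 in TU and 5.85, 6.16 and 7.96 in WIK. AB exceeded the mean of the others by 3.26 in males (adjusted p = 0.0201) and by 5.07 in females (adjusted p = 0.00265, both from limma over all probes), and the groups did not overlap. At A_15_P131656 (AF003943) only WIK was high, at 8.17 to 14.59 against 5.85 to 6.10 in AB and 5.88 to 6.20 in TU. The pair of cel.1 probes lay 2.32 and 2.83 lower in AB than in the others and were well above background in all 18 fish, and the second of them fell by 2.55 in AB females (adjusted p = 0.0497) and was 3.10 lower in AB males (adjusted p = 0.187). Probes of tandem duplicates can bind each other's transcripts, so a value cannot be given to 1 copy with certainty.

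Enzymes that act on steroids and drugs made up 3 of the 15 probes missing in AB. The accession NM_001033725, named sult3st4 and thus a cytosolic sulfotransferase, which adds sulfate to steroids and foreign compounds, dropped by 4.14. Its probe gave 5.98, 6.05 and 6.10 in AB, 8.86, 12.82 and 15.11 in TU and 7.75, 8.01 and 8.92 in WIK. AB was at least 17.5-fold lower than the mean of TU and WIK together, which differed widely. The mean log2 signal of AB was 6.20 below that of TU but 2.07 below that of WIK. All TU females, at 13.05 to 15.11, were above all TU males, at 8.86 to 12.59, a difference that did not pass (adjusted p = 0.932 in limma). Between the strains that had it, which the rule did not compare, TU exceeded WIK by 6.28 in females (standard error 0.44, adjusted p = 0.00154 in limma) and by 1.97 in males (standard error 0.87, adjusted p = 0.385).

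The probe of cyp51, the lanosterol demethylase of cholesterol synthesis, gave 5.96, 5.999 and 6.12 in AB, 7.16, 8.52 and 11.60 in TU and 7.24, 7.82 and 9.71 in WIK. The groups were separate, and AB was at least 5.37-fold lower. The remaining one was cyp2aa4, a cytochrome P450 of a fish gene subfamily, at 5.96 to 6.15 in AB, 6.31 to 10.24 in TU and 6.19 to 7.04 in WIK. Here AB and the lowest WIK fish were 0.05 apart, and the drop was 1.86 among fish with replicate number 3 but 0.33 among those with number 2.

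tmem254, a transmembrane protein gene, dropped by 3.94 in AB. Its probe gave 5.90, 6.04 and 6.15 in AB, 9.25, 10.17 and 10.50 in TU and 9.52, 9.90 and 10.42 in WIK, and AB was at least 15.0-fold lower. TU and WIK overlapped fully, and AB was 3.11 below the lowest of them.

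The remaining 10 probes missing in AB had drops of 0.70 to 1.77. The clone-named si:rp71-77l1.1 gave 5.90 to 6.06 in AB against 6.97 to 8.25 in TU and 6.84 to 8.81 in WIK, and the unnamed transcripts CN509912 and GW708867 dropped by 1.61 and 1.47. zgc:92040 gave 5.91 to 6.11 in AB, with WIK (7.40 to 8.42) largely above TU (6.77 to 7.89). The probe of cdk5, a cyclin-dependent kinase best known from neurons, gave 5.98 to 6.16 in AB, 7.07 to 7.28 in TU and 6.73 to 7.57 in WIK. The probe of aspm, a spindle pole protein of dividing cells, gave 5.91 to 6.10 in AB, 6.47 to 7.62 in TU and 6.50 to 8.15 in WIK, a drop of 1.07. That of zgc:162184 gave 6.002 to 6.09 in AB, 6.53 to 7.93 in TU and 6.33 to 7.26 in WIK, a drop of 0.88. At all of these AB was the low strain and TU and WIK overlapped. At the low end were igsf8, an immunoglobulin superfamily gene, at 0.73, and si:dkey-253d23.3 at 0.70, where the gap between AB and the next fish was 0.06.

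In TU 4 probes were missing. apip codes for a dehydratase of methionine salvage that was first named for its binding to Apaf-1. Its probe gave 5.97, 6.02 and 6.05 in TU, 7.58 to 9.52 in AB and 8.80, 8.95 and 9.42 in WIK, and TU was at least 7.38-fold lower. The lowest detecting fish was AB male 3, at 7.58, and the drop was 2.87, 2.93 and 2.88 among fish of replicate numbers 1, 2 and 3. zgc:56525 gave 5.84, 5.91 and 5.97 in TU against 7.84, 8.24 and 8.50 in AB and 7.47, 8.41 and 8.67 in WIK, at least 4.91-fold lower in TU. The unnamed ENSDART00000084738 dropped by 1.48, and oc90, which codes for otoconin, a matrix protein of the ear stones, by 1.00.

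Of the 17 probes missing in WIK, 2 belong to the class I antigen processing route. psmb12, a beta subunit of the proteasome, dropped by 4.21. Its log2 signal was 5.88, 6.04 and 6.32 in WIK, 9.19, 9.81 and 10.69 in AB and 9.46, 10.68 and 11.46 in TU, at least 18.5-fold lower in WIK. tapbp.1, which codes for tapasin, gave 6.002, 6.03 and 6.25 in WIK, 8.34, 8.78 and 9.39 in AB and 8.95, 9.52 and 10.07 in TU, at least 8.59-fold lower. WIK lay far below both other strains at each of them, by 2.87 and 2.09 between the nearest fish. Over the 11 measured leukocyte genes the median difference between a strain and the others was -0.01 for WIK, -0.87 for AB and 0.83 for TU. The others of WIK were thus unlike each other on this list. Its part in the drops was not tested.

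The other large drops in WIK were of genes with other roles. The probe of fah, the last enzyme of tyrosine breakdown, whose loss in humans causes tyrosinaemia, gave 5.87, 5.97 and 6.25 in WIK, 8.13, 9.25 and 10.74 in AB and 7.74, 9.21 and 10.12 in TU. WIK was at least 9.17-fold lower. The transcript BC125964, named si:ch73-308m11.1, gave 5.91, 5.997 and 6.24 in WIK, 9.18, 9.45 and 9.83 in AB and 8.55, 9.82 and 10.57 in TU, at least 11.9-fold lower. NM_194403, to which the tables used here give no symbol, dropped by 2.65, zgc:162698 by 2.20 and the unnamed TC378690 by 1.84.

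Both transporters among the 36 were missing in WIK. slc25a14, a mitochondrial carrier, gave 5.90, 5.96 and 5.99 in WIK, 7.14, 8.01 and 8.77 in AB and 6.45, 6.71 and 7.12 in TU, so that no strains overlapped. abcb4, an efflux pump that in zebrafish carries many foreign compounds, gave 5.91 to 6.12 in WIK, 6.44 to 8.83 in AB and 6.58 to 7.44 in TU. parp14rs1, related to the ADP-ribosyltransferase PARP14, was the accession with 2 missing probes, which dropped by 1.23 and 1.08. At both, the highest fish were TU fish, at 8.53 and 8.33. At the low end were EH472914 at 0.63 and ENSDART00000089050 at 0.55, the latter with WIK at 6.002 to 6.55 and TU at 6.22 to 6.59, the 1 probe of the 36 whose values overlapped.

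Among fish of 1 replicate number the drops were 0.33 to 5.34 in AB, 0.96 to 2.93 in TU and 0.44 to 4.45 in WIK. Within slides that held fish of more than 1 strain they were 0.53 to 5.59 in AB, 0.85 to 2.88 in TU and 0.28 to 3.90 in WIK. Such slides numbered 2 for AB, 3 for TU and 1 for WIK, and none held AB with WIK. Other WIK and AB fish lay on slides of their own strain alone, where slide and strain cannot be told apart. As the rule chose probes on these same arrays, it fixed the direction, and these ranges show sizes only.

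The rule was also applied to the arrays of 1 sex alone. Probes so chosen were then counted if called in the limma fit of the other sex. A probe was called lower at an adjusted p of at most 0.05 (Benjamini-Hochberg over all probes) and at least a 2-fold change. Of 159 probes that met the rule for AB on the male arrays, 11 (6.92%) were called lower in AB females, where 1.33% of all probes were called lower. Of 70 probes chosen in females, 23 (32.9%) were called lower in AB males, where the share over all probes was 1.17%. For TU, 3 of 31 probes chosen in males were called in females (0.539% of all probes) and 5 of 22 chosen in females were called in males (0.42%). For WIK, 14 of 170 chosen in males were called in females (0.562%) and 14 of 102 chosen in females in males (0.544%). The males and females of a strain shared its source, time of day and slides. Chosen probes had to be well above background in the other strains, while the shares over all probes include 7460 marked on no array. The shares are thus not alike, and the cause of the difference was not tested. In each direction the chosen probes also include the missing probes themselves, 15 for AB, 4 for TU and 17 for WIK. Those were chosen on both sexes, so calls among them are not separate from the choice. They made up all calls in TU females and most calls in AB females, WIK females, TU males and WIK males. In AB males they were a smaller part of the calls. The percentages are thus not read as a drop found again in other fish.

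In the other sex, the mean of the strain lay below that of the others in most of these probes. Counts were 144 of 159 and 64 of 70 for AB and 28 of 31 and 18 of 22 for TU. For WIK they were 154 of 170 and 89 of 102. The strain lay wholly below the others in 42 and 46 for AB, 11 and 7 for TU, and 43 and 40 for WIK. Shares over all probes were not counted for either, so nothing is read from these counts. The median change of the chosen probes was small, from -0.98 to -0.24, against -0.02 to 0.00 over all probes. Without AB male 1 the 23 called in AB males were 15, and without WIK male 1 or WIK male 2 the 14 called in WIK males were 6 and 7. Without WIK female 1 the 14 called in WIK females were 9, and without WIK female 2 or WIK female 3 they were 8 each. The 5 called in TU males were 3 without AB male 3, TU male 1, TU male 3, WIK male 1 or WIK male 2.

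Other probes of the same accession are those that did not meet the rule, and they come from the same fish and arrays. A further probe that met it counts as missing and is not among them, as at parp14rs1. The counts below thus leave out probes that dropped as fully as their partner. The 35 accessions had 40 such probes, 22 for AB, 4 for TU and 14 for WIK, and 13 accessions had none. In both sexes, 2 of 22 were called lower in AB (0.424% of all probes), 1 of 4 in TU (0.128%) and 1 of 14 in WIK (0.188%). The shares over all probes include 7460 marked on no array. Of the 4 in TU, 3 were marked on no array of AB or WIK. The shares are thus not alike, and the cause of the difference was not tested. In males alone the counts were 2, 1 and 1 (1.17%, 0.42% and 0.544% of all probes). In females alone they were 4, 1 and 1 (1.33%, 0.539% and 0.562%). The median change of the other probes was -0.24 in AB, -0.07 in TU and -0.71 in WIK. Without overlap between the strain and the others were 4 of 22 in AB (1.05% of all probes), 1 of 4 in TU (0.29%) and 2 of 14 in WIK (0.506%).

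At apip the second probe was also low in TU. A_15_P193636 gave 6.13, 6.46 and 8.004 in TU, 10.78, 11.58 and 12.19 in AB and 10.70, 10.87 and 11.49 in WIK. TU was lower by 4.62 in males (standard error 0.19, adjusted p = 0.000117) and by 4.55 in females (standard error 0.39, adjusted p = 0.00225, limma), and 5 of the 6 TU arrays were well above background there. The call held in all 17 settings run in each sex.

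At zgc:162184 the probe A_15_P193176 missed the rule by 1 array, AB male 2. It gave 6.03, 6.10 and 6.25 in AB, 8.04, 8.83 and 10.03 in TU and 7.66, 8.66 and 10.25 in WIK. AB was lower by 1.79 in males (adjusted p = 0.000165) and by 3.76 in females (adjusted p = 0.00023, limma). The third probe, A_15_P731181, was well above background in all 18 fish, and AB was lower by 1.76 in females (adjusted p = 0.00696) and 0.23 higher in males (adjusted p = 0.567). With each array scaled to its median the call in females was lost (adjusted p = 0.0776).

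At aspm 2 of 6 other probes were called lower in AB, 1 of them in both sexes. A_15_P130786 gave 6.18, 6.36 and 6.70 in AB, 7.61, 8.71 and 9.22 in TU and 7.87, 8.60 and 9.67 in WIK, and AB was lower by 1.76 in males (adjusted p = 0.0073) and 2.63 in females (adjusted p = 0.0055, limma). A_15_P604473 was lower by 2.01 in AB females (adjusted p = 0.0191) and by 1.40 in AB males (adjusted p = 0.0614), and the call in females was lost without any 1 of the AB females. The other 4 probes of aspm were dim in all strains, at 5.87 to 6.85 in every fish.

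The second probe of psmb12, A_15_P631036, was detected in all 18 fish and gave 7.10, 7.23 and 7.69 in WIK, 8.88, 9.48 and 10.35 in AB and 8.87, 10.28 and 11.39 in TU. WIK was lower by 3.07 in males (adjusted p = 0.0113) and by 2.19 in females (adjusted p = 0.0167, limma). The call was lost with the scan day as a block (adjusted p = 0.127 in males and 0.0972 in females), in females with each array scaled to its median (adjusted p = 0.0738), and without WIK male 1 (adjusted p = 0.0722), WIK male 2 (adjusted p = 0.0748), WIK female 1 (adjusted p = 0.0753) or WIK female 3 (adjusted p = 0.0673).

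In some of the other accessions, other probes were detected in the strain where their partner was missing, and in some they were not. Of the 40 other probes, 21 were well above background on all 12 arrays of the other strains. Of these, 16 differed by less than 1 on the log2 scale between the strain and the others. Of the same 21, 13 were well above background on all 6 arrays of the strain in which their partner was missing. These 13 include A_15_P631036 of psmb12 and A_15_P731181 of zgc:162184, described above. The other probes of tmem254 were 0.87 and 0.31 higher in AB, with levels in AB of 10.01 to 10.73 and 8.59 to 10.18, where the missing probe dropped by 3.94. Those of zgc:92040 and cdk5 were 0.57 and 0.54 higher in AB. None of these increases was called in either sex.

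The other probe of sult3st4 was 0.67 lower in AB on average, being 1.08 higher in males (adjusted p = 0.310) and 2.42 lower in females (adjusted p = 0.0841), with AB at 8.71 to 12.48. Of the 3 other probes of cyp51 the brightest was 0.61 lower and the others differed by -0.27 and 0.01. For fah, the brightest probe, A_15_P119392, gave 11.29 to 12.41 in WIK, 11.06 to 13.73 in AB and 10.03 to 12.57 in TU, a difference of 0.0048, and the other 2 were 0.70 and 0.86 lower in WIK. The other probe of zgc:162698 differed by 0.01. Those of slc25a14 were 0.39 and 0.29 lower in WIK without a call, and that of abcb4 was 0.52 lower in WIK males (adjusted p = 0.0391) and 0.31 lower in WIK females (adjusted p = 0.18).

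Further accessions had other probes that were lower in the strain without meeting both cutoffs in both sexes. The other probe of si:ch73-308m11.1 was 0.98 lower in WIK males (adjusted p = 0.0225) and 0.75 lower in WIK females (adjusted p = 0.0446), under the 2-fold cutoff, and did not overlap with the others. The brighter of the other probes of igsf8 was 0.52 and 0.94 lower in AB males and females (adjusted p = 0.0173 and 0.0209 in limma). That of tapbp.1 was 0.69 lower in WIK males (adjusted p = 0.0343) and 0.74 lower in WIK females (adjusted p = 0.192), and WIK overlapped with AB. At NM_194403 the other 3 probes were 1.94 to 4.35 lower in WIK without a call, and TU fish spread from 6.04 to 12.91 at A_15_P193576 and were detected on 3 or 4 of 6 arrays. The other probes of cyp2aa4, si:dkey-253d23.3 and ENSDART00000128708 were 0.21 to 0.57 lower in AB without a call, and that of parp14rs1 was 0.05 lower in WIK. The 3 other probes of oc90 were not well above background in any fish.

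The deposited log2 table holds 1 value per accession. Over 9834 accessions with several probes, these values followed the mean of the probes (Pearson r = 0.997). The median absolute difference was 0.43, so that they are near such a mean but not equal to it. There the strain difference of tmem254 was -0.92, that of fah -1.11 and that of cdk5 -0.22, while apip had -4.07 and psmb12 -3.21. The cel.2 accession with the missing probe, ENSDART00000040598, has a single probe and had -4.30.

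Genes next to the missing ones were examined in RefSeq gene order (assembly GRCz12tu), up to 5 measured genes on each side, a look added after the values were seen. Of the neighbouring probes, leaving out those of the same accessions, 2 of 213 (0.939%) were called lower in AB in both sexes, 0 of 37 in TU and 2 of 122 (1.64%) in WIK, where the shares over all probes were 0.424%, 0.128% and 0.188%. The pair in AB were zgc:92275 near cel.2 on chromosome 21, lower by 1.64 in males (adjusted p = 0.0192) and 2.29 in females (adjusted p = 0.00165), and marc1 near zgc:162184 on chromosome 17, lower by 1.06 (adjusted p = 0.0159) and 1.77 (adjusted p = 0.0068, limma). Each was called at 1 probe. The other probe of zgc:92275, 1.43 lower, and the others of marc1, 1.11 and 0.49 lower, were not called in both sexes. Near cyp2aa4 and sult3st4 lie genes of the same families, such as cyp2aa6 and sult3st2. These were 2.87 and 2.39 lower in AB without a call in both sexes. The median change was -0.64 over the 19 neighbouring probes of cyp2aa4 and 0.08 over the 18 of sult3st4. As with cel, probes of such copies can bind each other's transcripts.

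On chromosome 19, psmb12 and tapbp.1 lie 8 genes apart, and both WIK calls lie with them. tapbp.2 at A_15_P168736 gave 5.90, 6.20 and 6.28 in WIK, 6.43, 7.48 and 7.92 in AB and 7.50, 8.04 and 8.50 in TU, and WIK was lower by 1.42 in males (adjusted p = 0.025) and 1.64 in females (adjusted p = 0.0177). psmb9a, a further proteasome subunit gene directly after psmb12, gave 6.24, 6.49 and 7.05 in WIK, 7.85, 8.17 and 9.18 in AB and 7.81, 8.62 and 10.17 in TU, and WIK was lower by 2.67 in males (adjusted p = 0.0149) and 1.56 in females (adjusted p = 0.0167, limma). The other probes of tapbp.2 were 0.42 and 0.65 lower. In between, psmb13a was 0.58 lower and the probes of psmb8a 0.74 and 1.13 lower. Beyond psmb9a, the 7 probes of brd2a were 0.27 to 1.34 lower, while hsd17b8 was 0.21 higher. None of these was called in both sexes. The mhc1 genes that lie in this stretch were left out.

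Between the 2 strains that detected a probe, 0 of the 36 probes were called in both sexes, a comparison added after the data were seen (limma, with shares over all probes of 0.271% for TU against WIK, 0.897% for AB against WIK and 0.734% for AB against TU). The count is near these shares. At an unadjusted p under 0.05 the counts in males and females were 4 and 4 of the 15 AB probes, 1 and 0 of the 4 TU probes, and 9 and 3 of the 17 WIK probes. The share of all probes at that threshold was not counted, so nothing is read from these counts. slc25a14 was 0.95 higher in AB than in TU females (adjusted p = 0.0196) and 1.52 higher in males (adjusted p = 0.07 in limma).

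The sexes were compared within the strains that detected a probe. In limma fits of each strain, 0 probes were called in any set, where 2.02% of all probes were called between the sexes in AB (0.867% higher in males and 1.15% in females), 0% in TU and 1.37% in WIK (0.596% and 0.773%). In sets of this size 0 calls lie near these shares and tell nothing particular of the missing probes. At an unadjusted p under 0.05 there were 3 and 4 of the 15 AB probes in TU and WIK, 0 and 0 of the 4 TU probes in AB and WIK, and 2 and 3 of the 17 WIK probes in AB and TU. The share of all probes at that threshold was not counted, so nothing is read from these counts either. Differences between males and females reached -3.83 among the AB probes in TU, where 3 of 15 were over 2-fold. zgc:92040 was 0.75 lower in WIK males than in WIK females (adjusted p = 0.0314), under the 2-fold cutoff. fah was 1.42 higher in AB males than AB females (adjusted p = 0.171) and was called with the replicate number as a block (adjusted p = 0.0494) and with median scaling (adjusted p = 0.0392).

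The kinds of accession were close to those of the array. RefSeq transcripts made up 58.3% of the 36 probes and 62.7% of all probes, Ensembl transcripts 19.4% and 18.9%, and other sequences 22.2% and 18.4%. By symbol, 4 of the 24 missing probes with a symbol were in the group of drug and steroid metabolism. That group held 358 of the 26315 probes with a symbol. Of solute carriers there was 1 (550 probes), of the group of proteasome, ubiquitin and chaperone genes 1 (586 probes) and of clone names 7 (1886 probes), and cdk5 matched the immune prefixes by its letters alone.

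The rule has a threshold of all 18 arrays, and 76 further probes met it on 17, 33 for AB, 6 for TU and 37 for WIK. Among these were drops of 2.77 for zgc:162184 A_15_P193176, 2.62 for ENSDART00000099074 and 2.46 for cebpz in AB, 1.94 for spata13 in TU, and 4.24 for zgc:171679 and 3.93 for c3a.3, a complement gene, in WIK. AB male 2 and WIK male 3 were each the array that went against the rule at 10 probes. Without AB male 2 the AB set grew to 25 probes, and without WIK male 3 the WIK set grew to 27.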

How the data were processed

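Per the file headers the deposited scanner files hold linear intensity per spot, from one-colour Agilent arrays designed on danRer7. The authors also deposited a log2 table of 1 value per accession, background-subtracted and normalized with limma by a method not given in the sources used here, which served as an alternative. Median signal and local background were corrected with normexp (offset 50) and quantile-normalized in limma 3.58.1 (R 4.3.3), 197 outlier spots and 1417 control spots were left out, and spots of a probe were averaged. Each sex was fitted separately (9 arrays), a strain against the mean of the others, with Benjamini-Hochberg adjustment over 43603 probes. Fits were also run on simulated data with independent noise and no signal floor. That check does not cover probes at the floor. With 3 fish per group, their number limits precision. Each array held 1 fish. The probes, lists and rule for named genes (the 6 largest drops per strain, those with called or discordant other probes, the smallest drops, and list members) were chosen with earlier results of these data known. Probe sequences and coordinates were not used here. The other cel probes, neighbouring genes and comparisons of detecting strains were added after seeing the data. Counts were made in Python 3.11.15.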

Additional observations from a re-analysis of the deposited data

Results flagged for a closer look

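In 1 of 72 groups of 6 fish, a single fish stood apart from the rest of its strain by more than Dixon's 95% critical value of 0.625 allows, where chance alone flags about 1 in 20. At zgc:56525, missing in TU, WIK female 1 gave a log2 signal of 7.47 against 8.24 to 8.67 in the other WIK fish.

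The drop in AB differed between the sexes at all 3 probes of zgc:162184, as an interaction in 1 limma fit of 18 arrays. These were picked as the only ones past an adjusted p of 0.05 among the 36 missing and 40 other probes. The share over all probes is not given here, so nothing is read from their number. The change in males minus that in females was 0.87 at A_15_P348495 (adjusted p = 0.0452), 1.99 at A_15_P731181 (adjusted p = 0.0165) and 1.97 at A_15_P193176 (adjusted p = 0.00179). The difference thus lay toward a larger drop in females. Female TU and WIK fish were higher than males there, and AB was near background in both sexes at A_15_P348495 and A_15_P193176. With each array scaled to its median no interaction was past the threshold (adjusted p = 0.364, 0.309 and 0.414). That at A_15_P348495 was also lost without 15 of the 18 fish, each left out in turn, and the other 2 were kept without any 1 fish.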

How the results depend on the processing

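Dim probes limit these results: the missing strain is at the floor of the signal, and the size of a drop follows the background correction. Median changes of the probes missing in AB, TU and WIK were -5.13, -6.15 and -4.91 on the scanner's processed signal. There the median of all probes was -0.17, -0.25 and 0.33. Changes of the missing probes were -2.26, -2.82 and -1.98 with an offset of 16, and -0.92, -2.13 and -1.01 in the deposited table. That table holds 1 value per accession, so that other probes have no value of their own there. Scaling to the median gave -1.40 in AB. For other probes the processed signal gave -0.59, -0.95 and -1.64, median scaling -0.20 in TU and the offset of 16 -0.91 in WIK.

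The weaker mark in place of the stronger gave 4, 0 and 8 missing probes in AB, TU and WIK, and 1 array allowed against the rule 48, 10 and 54. Without 1 fish they were 15 to 25, 4 to 6 and 17 to 27.

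Other probes called lower in AB males, females and both were 5, 7 and 5 on the processed signal. With no fold cutoff AB males had 5, and with a 4-fold cutoff AB males and both sexes had 0. In WIK males, females and both, the counts were 3, 2 and 2 with the offset of 16 (3 in males on the processed signal), 4, 2 and 2 with no fold cutoff, and 0, 0 and 0 with the scan day as a block. Median scaling gave 0 in WIK females and 0 in both, and 1 fit of 18 arrays 4 in both. Without 1 fish the counts were 2 to 3, 3 to 5 and 2 to 3 in AB, 1 throughout in TU, and 0 to 5, 0 to 3 and 0 to 1 in WIK. In WIK 0 were called without WIK male 1, WIK male 2, WIK female 1 or WIK female 3, in the sex of that fish and in both. The counts in WIK males were 5 without TU male 2 and 2 without AB male 1 or TU male 1, and in WIK females 3 without TU female 1.

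Probes chosen in males and called in females were 3 in AB and 8 in WIK with median scaling, and 3 and 6 at 4-fold. Those chosen in females and called in males were 6 in AB at 4-fold, and 3 in TU with median scaling and at 4-fold. Without 1 fish the counts chosen in males were 8 to 14, 2 to 3 and 8 to 16 for AB, TU and WIK, and those chosen in females 15 to 28, 3 to 4 and 6 to 16. The WIK count in females was 9 without WIK female 1, and 8 without WIK female 2 or 3, and in males 6 without WIK male 1 and 7 without WIK male 2.

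Called between the sexes was 1 WIK probe in AB with median scaling and 1 with the replicate block (fah in both), and 0 to 1 AB probe in TU without 1 fish (zgc:162184, without TU female 3, adjusted p = 0.0317). Between AB and TU, 1 WIK probe was called with the offset of 16. Same-numbered fish of 2 strains correlated in their deviations from -0.06 to 0.30 within a sex. Between opposite sexes they correlated from -0.32 to 0.30. In 3 pairs of strains (AB and TU females, TU and WIK females, TU and WIK males) every correlation was above 0.1, but not in every pair, so the number was not taken as a pairing for the fits of 3 strains. It follows the scan day, apart from WIK number 3. The replicate block moved no other count by over 1.5 times and kept 1, 1 and 1 in WIK, where the scan day block gave 0. The causes of these changes were not tested.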
